A study of Mus musculus with 22 samples.

Results

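Stored fat is released from adipocytes by lipolysis, and 10 genes that encode the lipases of this pathway, their regulator and the proteins on the lipid droplet surface were followed in inguinal white adipose tissue (IWAT) next to a breast tumor. The genes were Pnpla2, Pnpla3, Lipe, Mgll, Abhd5, Plin1, Plin2, Plin4, Plin5 and Cidec. They were picked by name for their role, with earlier results of these data known. They are 10 of 23420 genes counted, and all 10 passed the filter on low counts that kept 14458 genes for testing.

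Triglyceride is cut stepwise in the adipocyte. Adipose triglyceride lipase (Pnpla2) removes the first fatty acid with the help of its co-activator (Abhd5), hormone-sensitive lipase (Lipe) the next, and monoglyceride lipase (Mgll) the last. Perilipin 1 (Plin1) coats the droplet and holds Abhd5 back until a beta-adrenergic signal releases it, while Cidec lets small droplets fuse into the single large droplet of the white adipocyte. Perilipin 2 (Plin2) coats droplets in most other cell types, including lipid-loaded macrophages.

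The libraries came from 11 wildtype female C57Bl/6 mice, about 20 weeks old at injection, of which 5 were lean on chow and 6 were obese after a high fat diet (HFD, 60% of kcal from fat), with 16 weeks of diet. Every mouse received E0771 cells, a breast cancer line from the same strain, in Matrigel in the left inguinal pad (tumor-associated IWAT) and Matrigel without cells in the right pad (control IWAT), so that all control pads also came from tumor-bearing mice. By the authors' results section both pads were collected 2 weeks later, while their methods give a range that starts at 2 weeks. The inguinal lymph node and the sheet of fat that covered the tumor were removed. For sequencing, the most peripheral IWAT was also left out. The groups are thus lean control and lean tumor-associated (n = 5 each), and obese control and obese tumor-associated IWAT (n = 6 each).

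The counts on genes summed to between 5759775 and 8598108 in each library. Levels are given as CPM, edgeR's counts scaled to the TMM-normalized library total. Differences are log2 fold changes from edgeR's quasi-likelihood test, and a gene counted as called where p, adjusted by Benjamini-Hochberg over all 14458 genes, was under 0.05. Their SE is the size of the log2 fold change divided by the square root of the F statistic of this test. The obese tumor-associated libraries of mice 0 and 4 stood apart: the 10 genes summed to 2352 and 1442 CPM there and to between 4169 and 6807 CPM in the other 4 libraries of the group. The tumor changes of the 10 genes in obese mice are also given without both libraries.

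The members lie on 6 mouse chromosomes (GRCm38, GENCODE M21 annotation). Pnpla2 (chr7:141455198-141460743, plus strand), Plin1 (chr7:79720218-79732903, minus), Plin2 (chr4:86648386-86670060, minus), Plin5 (chr17:56111601-56117596, minus) and Cidec (chr6:113424634-113435760, minus) share no exon base with another annotated gene. Lipe (chr7:25379527-25398710, minus) shares 918 of its 5886 exon bases with an antisense gene, and Abhd5 (chr9:122351608-122381524, plus) shares 950 of 5956. Mgll (chr6:88724412-88828360, plus), Pnpla3 (chr15:84167837-84187236, plus) and Plin4 (chr17:56100591-56109803, minus) share 167, 105 and 17. The strand setting of the counting is not given in the sources used here, so reads of the antisense genes cannot be told apart from those of Lipe and Abhd5.

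The sequences just upstream of the annotated start are shown for the 3 members that set the main patterns: Plin2, the member that rose in obese tumor-associated IWAT, Pnpla3, the member with the largest fall, and Cidec, which was higher in obese control IWAT. They are RefSeq sequences on GRCm38.p6, read 5′ to 3′ on the gene's strand, from chr4:86670061-86670309 (minus), chr15:84167566-84167815 (plus) and chr6:113435761-113436010 (minus). Capitals mark the hexamer AGGTCA, on either strand, of the element bound by PPAR receptors, which drive many adipocyte genes.
Plin2: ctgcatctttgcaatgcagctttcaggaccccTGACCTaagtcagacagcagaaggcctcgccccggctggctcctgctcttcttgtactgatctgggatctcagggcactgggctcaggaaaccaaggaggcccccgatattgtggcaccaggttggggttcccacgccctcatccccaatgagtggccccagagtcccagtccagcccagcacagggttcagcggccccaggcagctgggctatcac
Pnpla3: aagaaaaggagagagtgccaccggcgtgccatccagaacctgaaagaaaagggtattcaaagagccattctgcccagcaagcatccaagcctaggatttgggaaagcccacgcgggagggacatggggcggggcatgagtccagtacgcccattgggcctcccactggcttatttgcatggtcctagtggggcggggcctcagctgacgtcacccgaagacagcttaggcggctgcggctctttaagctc
Cidec: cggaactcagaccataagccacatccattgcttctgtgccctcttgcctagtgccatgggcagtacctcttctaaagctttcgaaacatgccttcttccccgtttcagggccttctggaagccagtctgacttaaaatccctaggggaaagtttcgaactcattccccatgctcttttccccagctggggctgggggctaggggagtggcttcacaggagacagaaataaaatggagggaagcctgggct
The hexamer stood in 3 of the 14 member windows of 250 bases (21.4%), those of Abhd5, Plin2 and Plin5, and in 14.0% of 32851 windows over all genes. The full element, AGGTCA repeated after 1 base, stood in 0 of the 14 and in 0.0335% of all windows. These letters are a match of sequence only, and factor binding was not measured.

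Levels per length were taken over the union of all annotated exons of a gene, so the order of genes depends on this annotation. In lean control IWAT, Pnpla3 had the highest level per exon length (535 ± 123 CPM per kb, SD, n = 5). Cidec (424 ± 74.0), Plin4 (332 ± 94.0) and Pnpla2 (305 ± 34.7) followed. Plin1, Lipe, Mgll and Plin2 lay between 126 and 164 CPM per kb, within the spread of Plin2 (SD 51.6). Abhd5 stood at 23.2 ± 4.57 and Plin5, a perilipin best known from oxidative tissues, at 5.62 ± 2.09 CPM per kb. The order differed in obese control IWAT, where Cidec led at 1062 ± 309 CPM per kb (SD, n = 6), Plin4 followed at 602 ± 136, and Pnpla3 was 8th at 104 ± 40.9. In obese tumor-associated IWAT, Plin2 moved up to the third place at 204 ± 56.0 CPM per kb, after Cidec (373 ± 207) and Plin4 (234 ± 131), and these neighbours did not differ by more than the SD of Cidec.

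**Figure D1:**
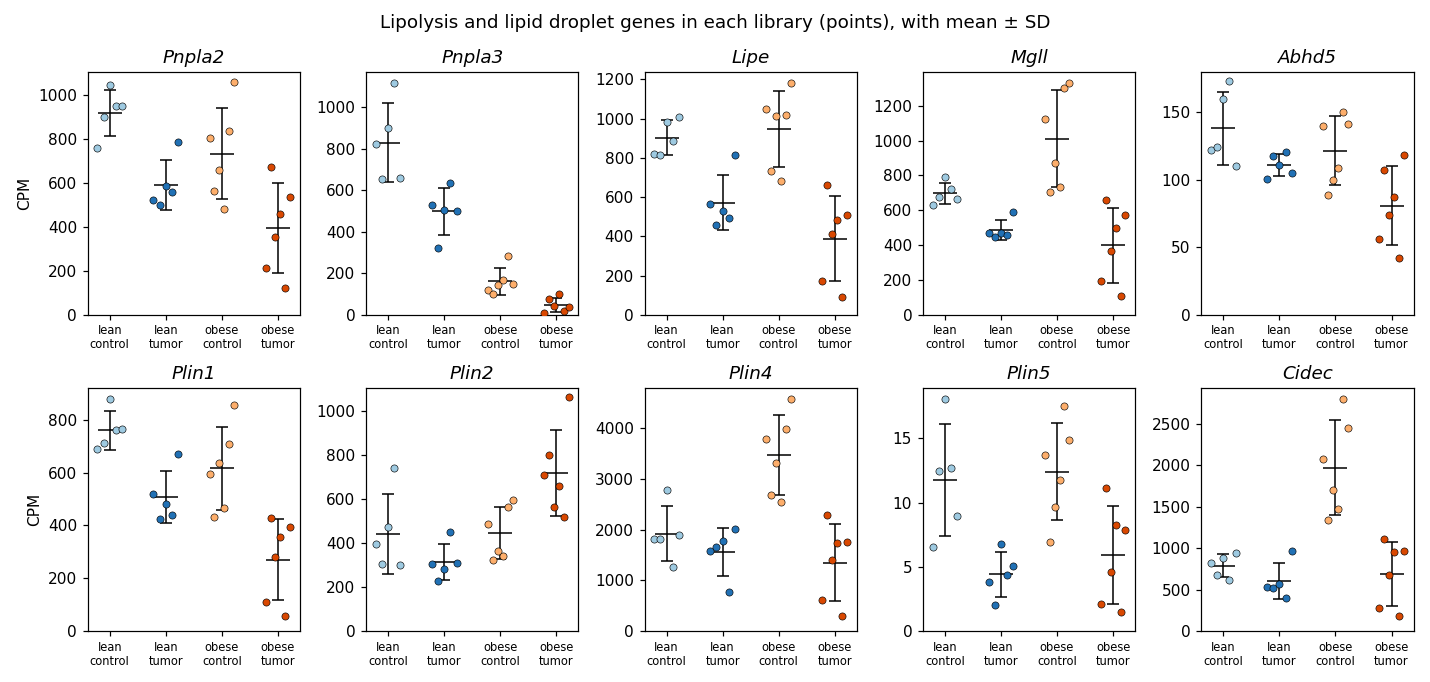
CPM of each of the 10 genes (y axis, from 0, own scale per gene) in the 22 libraries, grouped as lean or obese and control or tumor-associated IWAT. Points are libraries, the bars show mean ± SD. In obese tumor-associated IWAT, Plin2 lies between 517 and 1062 CPM, while for the other genes this group has lower means than obese control IWAT.

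In obese mice, 9 of the 10 genes fell and 1 rose in tumor-associated against control IWAT. All the lipases fell, as did the co-activator Abhd5, Cidec and 3 of the 4 perilipins, and Plin2 was the gene that rose. Over all genes tested, 27.7% were called lower and 26.8% higher in this comparison, and the median log2 fold change was -1.24 over the 10 genes and -0.02 over all genes. For 6 of the 10 genes, the obese tumor-associated libraries all lay below the obese control libraries, as was true of 9.66% of all genes tested; 9.95% lay wholly above, and none of the 10 did. CPM is a share of the library. In bulk tissue, fewer adipocytes, less RNA per adipocyte and more RNA from other cells therefore cannot be told apart. Without the tumor-associated libraries of mice 0 and 4, 7 genes fell and 1 rose, and 23.1% of all genes were called lower and 19.0% higher.

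Pnpla3, a lipase-like protein whose transcript follows feeding, had the largest fall. It ranged from 101 to 281 CPM (median 146) in obese control and from 8.02 to 99.9 CPM (median 38.3) in obese tumor-associated IWAT. The groups did not overlap, although the highest tumor-associated library lay just under the lowest control library. Pnpla3 fell by 1.79 on the log2 scale (SE 0.40, edgeR adjusted p = 0.00102), with lower levels in 6 of 6 mice. Without mice 0 and 4 it fell by 1.38 (adjusted p = 0.00171).

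Among the other lipolytic genes, Pnpla2 ranged from 484 to 1060.4 CPM (median 732) in obese control and from 124 to 676 CPM (median 407) in obese tumor-associated IWAT. The groups overlapped, and Pnpla2 was lower in 5 of 6 mice, with a fall of 0.90 (SE 0.29, adjusted p = 0.012). Lipe ranged from 684 to 1184 CPM (median 1017) and from 91.1 to 660 CPM (median 448), and Mgll from 702 to 1333 CPM (median 996) and from 110.3 to 656 CPM (median 431). Neither overlapped between the groups, and both were lower in 6 of 6 mice. Lipe fell by 1.29 (SE 0.32, adjusted p = 0.00214) and Mgll by 1.34 (SE 0.30, adjusted p = 0.00107). The falls were smaller without mice 0 and 4, at -0.56 for Pnpla2 (adjusted p = 0.0356), -0.90 for Lipe (0.000819) and -0.97 for Mgll (0.000685). Abhd5 had the smallest fall, from 122 ± 25.8 to 80.7 ± 29.3 CPM (SD, n = 6), a log2 change of -0.59 (SE 0.20, adjusted p = 0.0169), in 5 of 6 mice. The call of Abhd5 was lost without mice 0 and 4 (-0.35, adjusted p = 0.0962), and in a fit to the 12 obese libraries alone the calls of Abhd5 (adjusted p = 0.0637), Plin5 (0.0637) and Pnpla2 (0.057) were lost.

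Of the droplet coat genes, Cidec fell most. It ranged from 1335 to 2800 CPM (median 1887) in obese control and from 183 to 1108 CPM (median 810.0) in obese tumor-associated IWAT, without overlap, and fell by 1.51 (SE 0.34, adjusted p = 0.0012) in 6 of 6 mice. Plin4, an abundant adipocyte perilipin, fell by 1.37 (SE 0.35, adjusted p = 0.00313) from 3479 ± 787 to 1350.4 ± 756 CPM (SD, n = 6). Plin1 ranged from 433 to 857 CPM (median 616) and from 57.6 to 429 CPM (median 317), and fell by 1.19 (SE 0.33, adjusted p = 0.00522). Both were lower in 6 of 6 mice, and their groups did not overlap, with Plin1 of the highest tumor-associated library 429 against 433 CPM in the lowest control library. Leaving out mice 0 and 4, the log2 changes were -1.12 for Cidec (adjusted p = 0.00152), -0.97 for Plin4 (0.00454) and -0.78 for Plin1 (0.00232). Plin5 had 11 to 114 counts per library in these groups and fell by 1.06 (SE 0.39, adjusted p = 0.0269), from 12.4 ± 3.80 to 5.91 ± 3.80 CPM. Its call was lost without the tumor-associated library of mouse 0 (-0.90, adjusted p = 0.0587), without the control library of mouse 4 (-0.94, 0.0615) and without the tumor-associated libraries of both mice 0 and 4 (-0.66, 0.113).

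Plin2 went the other way. It ranged from 321 to 596 CPM (median 426) in obese control and from 517 to 1062 CPM (median 684) in obese tumor-associated IWAT. The ranges overlapped. Mouse 4 had 563 CPM in the control and 517 CPM in the tumor-associated pad, and the other 5 mice were all higher on the tumor side. Plin2 rose by 0.69 on the log2 scale (SE 0.23, adjusted p = 0.0173). Without the tumor-associated library of mouse 8, the highest, the log2 change was 0.54 and the adjusted p 0.0519. Without mice 0 and 4 the rise was 0.77 (adjusted p = 0.0236).

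**Figure D2:**
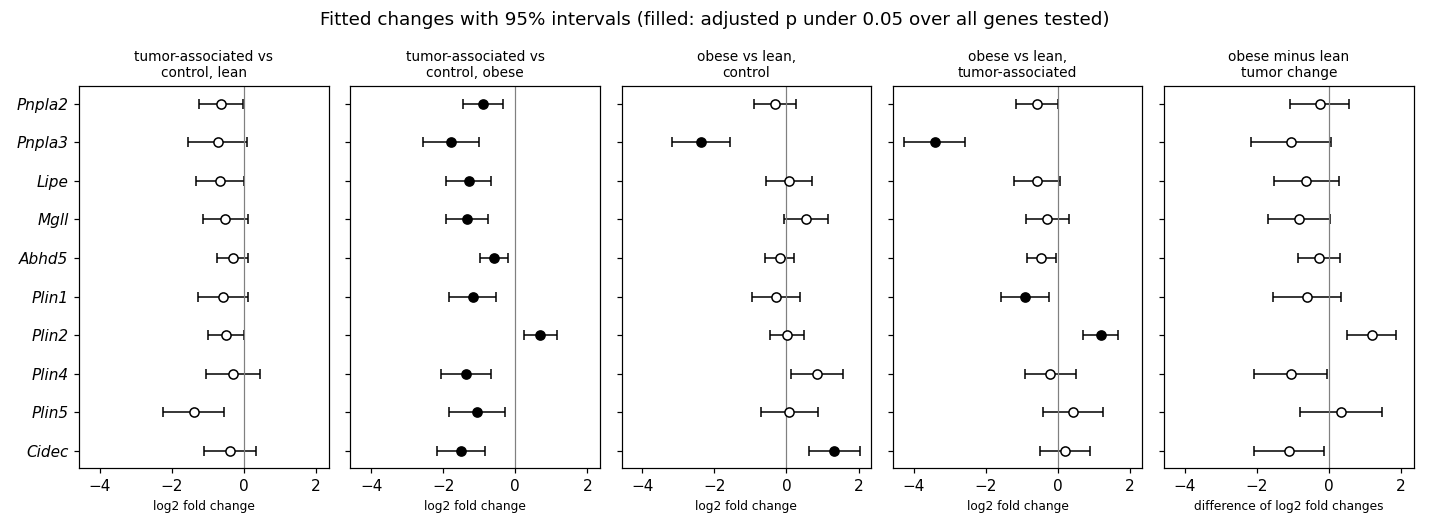
Fitted log2 fold changes (x axis) of the 10 genes in the 4 comparisons and the obese minus lean difference of tumor changes, with approximate 95% intervals from the standard errors (normal approximation). The intervals are narrower than the edgeR test allows. That of Pnpla2 in lean mice, for example, excludes 0 (-1.25 to -0.03) at an unadjusted p of 0.0528. Filled points are called at an adjusted p under 0.05 over all genes tested. In obese mice Plin2 lies at 0.69 and the other 9 genes between -1.79 and -0.59.

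In lean mice, all 10 genes had lower fitted levels in tumor-associated than in control IWAT, with log2 fold changes from -1.40 to -0.30 and a median of -0.55 (0.01 over all genes), and none was called by edgeR. Over all genes, 0.913% were called lower and 3.27% higher. An unadjusted p under 0.05 was found for 1 of the 10 genes, Plin5 (16.1% of all genes), and DESeq2 also called 1, Plin5. The count depended on which libraries entered the fit. When the 10 lean libraries were fitted on their own, 6 genes were called lower (Lipe, Mgll, Plin1, Plin5, Pnpla2 and Pnpla3), with 4.3% of all genes. Without the obese tumor-associated libraries of mice 0 and 4, 4 were called lower (Lipe, Plin1, Plin5 and Pnpla2), with 3.02% of all genes. For 4 of the 10 genes, the lean tumor-associated libraries all lay below the lean control libraries (3.03% of all genes; 5.33% lay wholly above, and none of the 10 did).

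Plin5 had the largest difference in lean mice. It stood at 6.50, 12.4, 18.1, 12.7 and 8.98 CPM in the control pads of mice 0, 2, 3, 6 and 9, and at 3.79, 2.02, 6.79, 4.38 and 5.10 CPM in their tumor-associated pads. It was lower in 5 of 5 mice, the ranges overlapped slightly, and the log2 fold change was -1.40 (SE 0.44, adjusted p = 0.0789), with 13 to 50 counts per library in tumor-associated IWAT. Without the obese tumor-associated library of mouse 4, which is not part of the comparison but enters the fit, the adjusted p was 0.0296. Pnpla3 stood at 821, 654, 898, 1114 and 657 CPM in the control pads of the same mice and at 526, 324, 505, 635 and 498 CPM in the tumor-associated pads, without overlap (log2 fold change -0.74, SE 0.42, adjusted p = 0.43). Lipe, Mgll and Plin1 also did not overlap. Plin1, for example, was 689 to 879 CPM in control and 425 to 671 CPM in tumor-associated IWAT (log2 fold change -0.59, SE 0.36, adjusted p = 0.48). Plin2 stood at 394, 304, 472, 740.4 and 301 CPM in control and at 304, 226, 281, 449 and 309 CPM in tumor-associated IWAT. It was lower in 4 of 5 mice and overlapped widely (log2 fold change -0.49, SE 0.26, adjusted p = 0.359). Abhd5 (-0.31), Plin4 (-0.30), Cidec (-0.40), Mgll (-0.52), Pnpla2 (-0.64) and Lipe (-0.66) had adjusted p values from 0.32 to 0.869.

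The tumor change was compared directly between obese and lean mice in the same fit. The authors report larger tumors in obese mice. Diet and tumor size therefore cannot be told apart, here or between the tumor-associated pads of both diets. None of the 10 genes was called, 2 had an unadjusted p under 0.05 (Plin2 and Cidec; 32.9% of all genes), and over all genes 2.58% were called higher and 2.34% lower. Plin2 came nearest, with a difference of 1.18 in log2 fold change (SE 0.35, unadjusted p = 0.00258, adjusted p = 0.0512). The adjusted p ranged from 0.0152 to 0.102 over 29 alternatives and was under the threshold in 8 of them, among these the fit with the mouse as a replicate block, which pairs both pads of a mouse (1.14, SE 0.24, adjusted p = 0.0352), and DESeq2 (1.20, adjusted p = 0.0152). It was also under the threshold without lean tumor-associated mouse 6 (0.0447) and without obese tumor-associated mouse 1 (0.029), 3 (0.043) or 4 (0.0436). Without obese mice 0 and 4 together it was above the threshold (1.28, adjusted p = 0.0752). For Cidec the difference was -1.11 (SE 0.50, adjusted p = 0.129), for Plin4 -1.07 (SE 0.52, 0.154) and for Pnpla3 -1.05 (SE 0.57, 0.198). The remaining 6 genes lay between -0.82 (Mgll) and 0.34 (Plin5).

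Diet was compared within each pad. In control IWAT, 1 gene was lower and 1 higher in obese than in lean mice, with 7.53% of all genes called lower and 9.54% higher. Pnpla3 ranged from 654 to 1114 CPM in lean and from 101 to 281 CPM in obese control IWAT, without overlap, and fell by 2.37 (SE 0.41, adjusted p = 0.000588). Cidec stood at 815, 680, 880, 617 and 947 CPM in lean mice 0, 2, 3, 6 and 9 and ranged from 1335 to 2800 CPM in obese mice, without overlap, a rise of 1.32 (SE 0.36, adjusted p = 0.0159). Both calls held in all 29 alternatives. Plin4 was 1920 ± 543 and 3479 ± 787 CPM (log2 fold change 0.86, SE 0.37, adjusted p = 0.115). It was called without the obese tumor-associated library of mouse 4 (0.0328), and with Mgll (log2 fold change 0.54) in the fit to the control libraries alone (0.0107 and 0.038) and without both mice 0 and 4 (0.0108 and 0.031). The other 6 genes lay between -0.33 (Pnpla2) and 0.08 (Plin5), and the signs of Plin2 (0.01), Lipe (0.07) and Plin5 changed under alternatives.

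In tumor-associated IWAT, 2 genes were lower and 1 higher in obese than in lean mice, where 22.4% of all genes were called lower and 24.7% higher. Pnpla3 was 498 ± 112 CPM in lean and 46.4 ± 34.5 CPM in obese mice, without overlap, and fell by 3.42 (SE 0.43, adjusted p = 1.12e-05). Plin2 rose by 1.19 (SE 0.25, adjusted p = 0.000739), from 226 to 449 CPM in lean to 517 to 1062 CPM in obese mice, again without overlap. Both calls held in all 29 alternatives. Plin1 fell by 0.90 (SE 0.34, adjusted p = 0.0343), but the ranges of 425 to 671 and 57.6 to 429 CPM overlapped. Its call was lost in a fit to the tumor-associated libraries alone (adjusted p = 0.111) and without lean tumor-associated mouse 0 (0.055), lean mouse 9 (0.0852) or obese mouse 0 (0.0714). Without obese mice 0 and 4 together it was smaller (-0.49, 0.0468). Abhd5 (-0.46, adjusted p = 0.074) was called with upper-quartile normalization (0.045) and without obese tumor-associated mouse 1 (0.036) or 8 (0.0204), and Pnpla2 (-0.59, 0.108) and Lipe (-0.56, 0.162) without mouse 1 (0.0238 and 0.0486). Cidec, which differed in control IWAT, was 598 ± 217 and 692 ± 384 CPM (0.21, SE 0.35, adjusted p = 0.64). The 2 tumor comparisons and the 2 diet comparisons use the same libraries, so their values are not independent of each other.

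Adipocyte genes as a whole also differed between the pads. Of 12 adipocyte markers, 11 fell and none rose in obese tumor-associated IWAT (median log2 fold change -1.52), beside 27.7% and 26.8% of all genes. None was called in lean mice by edgeR or by DESeq2 (median -0.55, 11 of 12 negative). There, 2 had an unadjusted p under 0.05 by edgeR, beside 16.1% of all genes. Without mice 0 and 4, 10 of the 12 fell in obese mice and 4 in lean mice, beside 23.1% and 3.02% of all genes. With the lean libraries alone 7 fell in lean mice, beside 4.3%. Adipoq, which encodes adiponectin, was 2011 ± 468 CPM in obese control and 700.4 ± 420.4 CPM in obese tumor-associated IWAT (SD, n = 6). The markers summed to 21924 to 27271 CPM in control and 13790 to 22414 in tumor-associated libraries of lean mice, and to 22196 to 40274 and 2845 to 18214 in those of obese mice, and no marker was at 0. The change of each gene was therefore set beside the mean change of the adipocyte markers in the same mouse, as values without a test. This mean change was -0.53 ± 0.21 in lean (SD, n = 5) and -1.72 ± 1.30 in obese mice (SD, n = 6), with -3.08 in mouse 0, -3.48 in mouse 4 and -0.27 in mouse 1. Without mice 0 and 4 it was -0.93 ± 0.59 (SD, n = 4).

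Relative to the adipocyte markers, some genes stayed closer than others, and no limit was set between them. In obese mice, Cidec (-0.02 ± 0.23), Plin4 (0.09 ± 0.23), Lipe (0.17 ± 0.16), Mgll (0.18 ± 0.21) and Plin1 (0.25 ± 0.25, all log2, SD, n = 6) lay nearest to the markers. Except for Cidec, each of these lay above the markers in 5 of 6 mice. Plin2 lay above them by 2.41 ± 0.89, with values of 3.62, 1.59, 2.03, 1.56, 3.35 and 2.29 in mice 0, 1, 2, 3, 4 and 8. Abhd5 lay above them by 1.07 ± 0.58, Pnpla2 by 0.66 ± 0.27 and Plin5 by 0.44 ± 0.30, each in 6 of 6 mice. These SDs are between mice, and the single markers also differed. Their fitted changes in obese mice ran from -1.86 (Nnat) to -0.94 (Cfd). The fitted changes of Plin5 (-1.06) and Pnpla3 (-1.79) lay within this range and that of Pnpla2 (-0.90) just above it. Abhd5 (-0.59) and Plin2 (0.69) lay further above. In the 4 mice other than 0 and 4, Plin2 lay above the markers by 1.86 ± 0.35 and Abhd5 by 0.75 ± 0.40 (SD, n = 4). Plin1 (0.26 ± 0.058), Mgll (0.15 ± 0.079), Lipe (0.14 ± 0.059) and Plin4 (0.087 ± 0.056) also lay above them in each of these 4 mice. Cidec lay on both sides (0.036 ± 0.056). Pnpla3 lay below the markers in 6 of 6 obese mice (-0.41 ± 0.24) and in 5 of 5 lean mice (-0.21 ± 0.20). In lean mice Plin2 lay close to the markers (0.08 ± 0.12, SD, n = 5). Abhd5 lay above them there too (0.23 ± 0.097) and Plin5 below them (-0.84 ± 0.69), each in 5 of 5 lean mice. Fitted changes of single markers in lean mice ran from -0.88 (Slc2a4) to 0.0042 (Nnat). Those of Abhd5 (-0.31) and Pnpla3 (-0.74) lay within this range and that of Plin5 (-1.40) below it. Leaving Adrb3, Fabp4 and Lpl, which belong to the pathway lists, out of the markers moved Plin2 in obese mice to 2.45 ± 0.87.

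**Figure D3:**
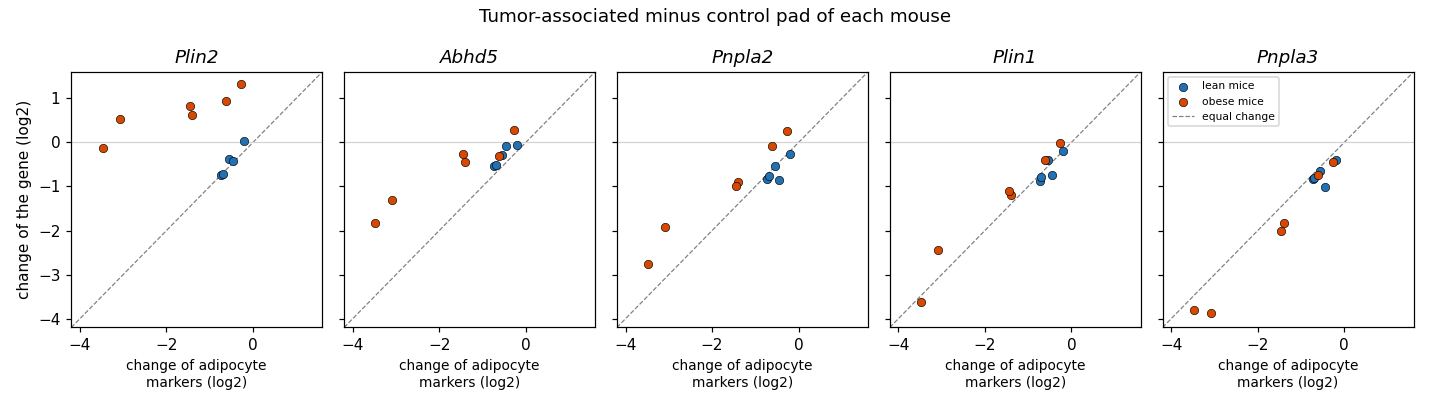
Log2 change of 5 of the genes (y axis) against the mean log2 change of 12 adipocyte markers (x axis), each being tumor-associated minus control within 1 mouse. Blue points are the 5 lean and orange points the 6 obese mice, and the dashed line marks equal change. The obese mice lie 1.56 to 3.62 above the line for Plin2, and for Pnpla3 all 11 mice lie below it.

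The make-up of the perilipins within a library shifted accordingly. Of the summed CPM per kb of Plin1, Plin2, Plin4 and Plin5, Plin2 took 20.2 ± 8.49% in control and 19.9 ± 8.92% in tumor-associated IWAT of lean mice. In obese mice it took 12.7 to 15.9% in control and 45.5 ± 16.1% in tumor-associated IWAT. Lean mouse 6 stood apart from the other lean mice in both pads, at 35.1 and 35.7%, and the lowest obese tumor-associated library was at 31.6%. The ratio of Plin2 to Plin1 per length was 0.77 ± 0.31, 0.84 ± 0.29, 0.96 ± 0.11 and 5.27 ± 4.00 in the same order of groups. The lowest obese tumor-associated value, 2.46, lay above the highest of all other libraries, 1.35. Mice 0 and 4, at 8.58 and 11.9, carried the mean of obese tumor-associated IWAT, which was 2.79 ± 0.52 without them (SD, n = 4), and the Plin2 share was then 35.6 ± 5.34%. Among the lipases, the ratio of Pnpla3 to Pnpla2 per length was 1.77 ± 0.42 in control and 1.67 ± 0.43 in tumor-associated IWAT of lean mice, and 0.446 ± 0.179 and 0.229 ± 0.125 in those of obese mice.

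**Figure D4:**
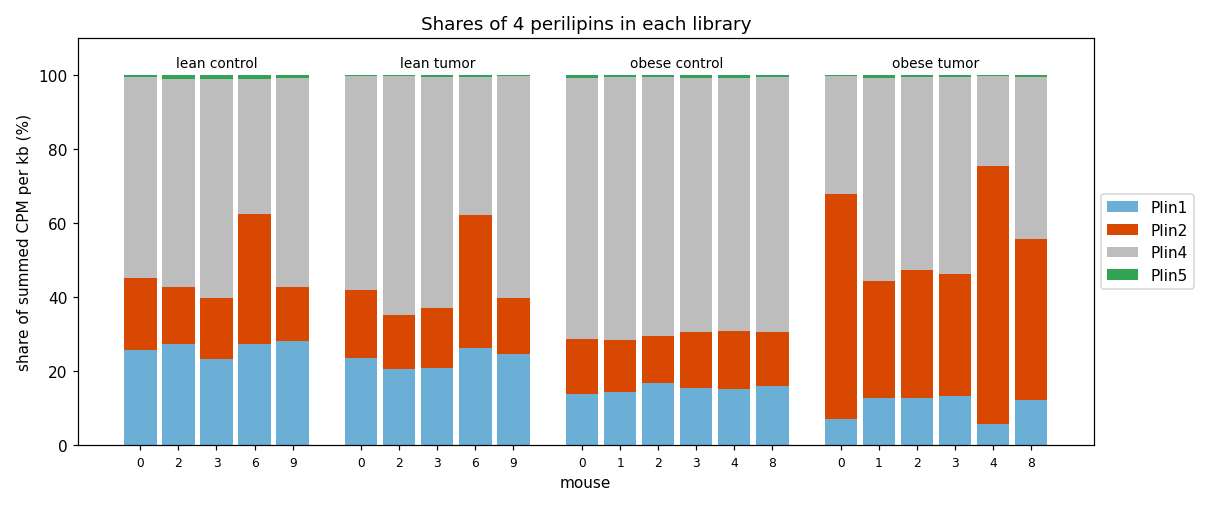
Share of Plin1, Plin2, Plin4 and Plin5 in their summed CPM per kb (y axis, percent) in each of the 22 libraries, which are labelled by mouse (x axis) and grouped by diet and pad. Plin2 takes 31.6 to 69.6% in the 6 obese tumor-associated libraries and 12.7 to 15.9% in the 6 obese control libraries.

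Markers of other cell types moved with these groups. Macrophage markers rose in both diets, 10 of 12 in lean (3.27% of all genes) and 11 of 12 in obese tumor-associated IWAT (26.8%). Their summed level was 888 to 1831 and 1958 to 4228 CPM in control and tumor-associated IWAT of lean mice. In those of obese mice it was 1365 to 1944 and 2291 to 5736 CPM. Emr1, which encodes F4/80, rose by 1.28 in lean (adjusted p = 0.00472) and by 1.57 in obese mice (adjusted p = 2.74e-05). The 6 obese tumor-associated libraries had 5588, 5736, 2974, 5562, 2291 and 5533 CPM of macrophage markers in mice 0, 1, 2, 3, 4 and 8, where Plin2 stood at 708, 801, 562, 659, 517 and 1062 CPM. Mice 4 and 2 were lowest in both, and also in fibroblast markers (5030 and 10424 CPM, against 14598 to 17918 CPM in the others). Mouse 4 was also lowest in adipocyte (2845 CPM) and endothelium markers (229 CPM). In lean tumor-associated IWAT, macrophage markers were higher than in lean control IWAT in 5 of 5 mice, and Plin2 in 1 of 5. The part of macrophages in the change of Plin2 was not tested. Epithelium markers fell with the droplet genes in obese tumor-associated IWAT (7 of 8; Epcam fell by 1.63, adjusted p = 0.000749), as did 4 of 4 endothelium markers, while of 8 fibroblast markers 3 rose and 2 fell. Skeletal muscle markers (4 of 7 tested) reached 2313 CPM in the obese control library of mouse 1 and 236 CPM in the obese tumor-associated library of mouse 8. Their 4 tested genes were higher in obese than lean control IWAT (9.54% of all genes), and 2 fell in obese tumor-associated IWAT (Acta1 by 2.50, adjusted p = 0.0207). B cell markers reached 432 and 400 CPM in the obese control libraries of mice 1 and 3. They summed to 1.72 to 9.30 CPM in the other obese control libraries, and 1 of 4 was called lower in obese tumor-associated IWAT. The control libraries of mice 1 and 3 were also the lowest of their group in Pnpla2 (564 and 484 CPM), Lipe, Mgll, Plin1, Plin2, Plin4 and Cidec. Mouse 1 was the obese mouse in which Pnpla2, Abhd5 and Plin5 were not lower on the tumor side. Of 5 tested brown fat markers, all were lower in obese than lean control IWAT (7.53% of all genes), and 1 fell in obese tumor-associated IWAT. Between control pads, the log2 fold change of Ucp1 was -4.94 (adjusted p = 0.00139). The falls of fibroblast, skeletal muscle, B cell and brown fat markers in obese tumor-associated IWAT were no longer called without mice 0 and 4 (0 lower in each list, and 1 of 6 brown fat markers higher; Acta1 -2.01, adjusted p = 0.0905). In the same fit 3 of 4 endothelium and 7 of 8 epithelium markers fell, and 11 of 12 macrophage markers rose, beside 23.1% and 19.0% of all genes. Over all genes, 27.7% were called lower and 26.8% higher in obese tumor-associated IWAT. The part of these cell types in the results was not tested.

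Regulators of lipolysis were viewed on a list of 34 genes, 32 of them tested. In obese tumor-associated IWAT, 21 fell and 4 rose, beside 27.7% and 26.8% of all genes. Without mice 0 and 4, 18 fell and 4 rose, beside 23.1% and 19.0%. In lean tumor-associated IWAT 1 rose (Gnai2, named after its value was seen, 0.38, adjusted p = 0.0475) and none fell by edgeR or DESeq2. By edgeR 3.27% of all genes rose and 0.913% fell. An unadjusted p under 0.05 was found for 4 of the 32, beside 16.1% of all genes. The rise of Gnai2 was lost with upper-quartile or median-ratio normalization, without a filter and with at least 10 counts in every library. With the lean libraries alone 3 rose and 7 fell, beside 6.15% and 4.3% of all genes. Without obese mice 0 and 4 in the fit 1 rose and 2 fell, beside 5.08% and 3.02%. The largest falls were of receptors, Ptger3 (a receptor of prostaglandin E2, -1.95, adjusted p = 0.000825), Acvr1c (the activin receptor ALK7, -1.87, 0.000124) and Npr3 (the natriuretic peptide clearance receptor, -1.63, 0.000568). The beta-adrenergic receptor Adrb3 was 212 ± 23.1 and 131 ± 40.1 CPM in lean and 29.3 ± 11.9 and 14.0 ± 10.6 CPM in obese control and tumor-associated IWAT. It was lower in obese than in lean control IWAT by 2.85 (adjusted p = 0.000275) and fell by 1.06 with the tumor in obese mice (0.0483), a call that was lost without mice 0 and 4 (-0.56, 0.0885). Pde3b, the phosphodiesterase through which insulin restrains lipolysis, fell by 1.40 (0.000303), and Prkar2b, a regulatory subunit of protein kinase A, by 1.58 (0.000335). Aqp7, a glycerol channel, fell by 1.23 (0.00647) and the fatty acid carrier Fabp4 by 1.15 (0.00409).

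The inhibitors of adipose triglyceride lipase parted. G0s2 was 245 ± 72.9 and 152 ± 25.1 CPM in lean and 108 ± 39.0 and 48.2 ± 31.5 CPM in obese control and tumor-associated IWAT, and fell by 1.17 with the tumor in obese mice (adjusted p = 0.013; -0.74 and 0.0257 without mice 0 and 4). Hilpda, which hypoxia is known to induce, was 5.97 ± 1.05 and 6.54 ± 1.53 CPM in lean and 13.1 ± 4.79 and 25.8 ± 6.99 CPM in obese mice. It rose by 0.98 in obese tumor-associated IWAT (0.00134), and by 1.13 between lean and obese control IWAT (0.00396). Faf2, a droplet protein that binds the lipase, was 64.0 ± 3.77 and 67.2 ± 6.78 CPM in obese mice (0.07, adjusted p = 0.413). The obese minus lean difference was 0.85 for Hilpda (0.101) and -0.48 for G0s2 (0.556). None of the 32 genes was called for it by edgeR, with 12 of 32 at an unadjusted p under 0.05 beside 32.9% of all genes. DESeq2 called 4 lower (7.46% of all genes), and 1 was called lower with the mouse as a replicate block (2.01%). Obese control IWAT had 4 of the 32 higher and 4 lower than lean control IWAT, beside 9.54% and 7.53% of all genes. The counts were 9 and 5 without mice 0 and 4 (14.0% and 11.4% of all genes), and 10 and 5 with the control libraries alone (13.1% and 10.6%). Obese tumor-associated IWAT had 3 higher and 14 lower than lean, beside 24.7% and 22.4% of all genes.

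A further list held 30 other lipid droplet and lipase genes, 26 of them tested. In obese tumor-associated IWAT 14 fell and 3 rose, beside 27.7% and 26.8% of all genes. Without mice 0 and 4, 12 fell and 2 rose, beside 23.1% and 19.0%. In lean tumor-associated IWAT 1 fell (Ddhd2, a phospholipase, named after its value was seen, -0.55, adjusted p = 0.00575) and none rose by edgeR, beside 0.913% and 3.27% of all genes. An unadjusted p under 0.05 was found for 8, beside 16.1% of all genes. DESeq2 called 2 lower and 0 higher, 8 fell without obese mice 0 and 4 in the fit, and 10 of 24 fell with the lean libraries alone. Of all genes, 1.92%, 3.02% and 4.3% were called lower in these fits. The largest falls in obese mice were of Dgat2, which makes the last step of triglyceride synthesis (-1.74, adjusted p = 0.000757), Ces1d, a triglyceride hydrolase (-1.70, 0.00161), and Lpl, which frees fatty acids from the triglyceride of lipoproteins (-1.51, 0.000591). Plin3, the ubiquitous perilipin, was 70.6 ± 10.8 and 82.0 ± 11.8 CPM in obese mice (0.22, adjusted p = 0.0769) and between tumor-associated pads was higher in obese mice by 0.51 (adjusted p = 0.000796). Cidea, the relative of Cidec that is typical of brown and beige fat, was 50.5 ± 27.9 CPM in lean and 2.95 ± 0.727 CPM in obese control IWAT, a log2 fold change of -4.10 (adjusted p = 0.000103), the direction opposite to that of Cidec. None of the 26 genes was called for the obese minus lean difference by edgeR, with 7 of 26 at an unadjusted p under 0.05, beside 32.9% of all genes. DESeq2 called 2, where it called 8.53% of all genes higher and 7.46% lower. Between control pads 3 were higher and 3 lower in obese mice, beside 9.54% and 7.53% of all genes. The counts were 4 and 6 without mice 0 and 4 (14.0% and 11.4% of all genes), or with the control libraries alone (13.1% and 10.6%). Between tumor-associated pads 3 were higher and 10 lower, beside 24.7% and 22.4% of all genes.

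The likeness of patterns was described over the 22 libraries by the correlation of log2 CPM, without a test, since libraries share groups and mice. Plin1, Pnpla2 and Lipe were nearly parallel (r = 0.96 to 0.98), and Cidec lay nearest to Plin4 (0.94). Plin2 was the farthest member for each of the other 9 genes, with r from -0.51 (Pnpla3) to 0.19 (Plin5). The gene outside the list nearest to each member was Negr1 for Pnpla2 (0.98), Retn for Pnpla3 (0.97), Scp2 for Lipe (0.98), Lpl for Mgll (0.99), Aldh1a7 for Abhd5 (0.97), Cebpa for Plin1 (0.99), Fzd4 for Plin4 (0.98), Slc25a20 for Plin5 (0.95) and Lims2 for Cidec (0.97). Plin2 had no neighbour as close (Cmpk1, 0.86). With each group centred on its own mean, the r of Plin2 with the other members was 0.17 to 0.72, highest with Abhd5.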

How the data were processed

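Total RNA of both inguinal pads of 5 lean and 6 obese mice, depleted of ribosomal RNA, gave 22 libraries. The authors mapped the reads to mm10 with STAR (2.4.0f in the submitters' processing notes), used HTSeq for counting. The deposited values are whole, raw counts for each gene symbol that were not normalized. Neither the strand setting nor the annotation behind the counting is given in the sources used here. The deposited table holds 23420 genes and 5 lines that name no gene, and 38.5% to 48.8% of the counts fell on no gene.

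Tests were run with edgeR 4.0.16 in R 4.3.3: TMM normalization, the default filter on low counts by group, 1 quasi-likelihood fit to all 22 libraries as 4 groups without a block, 5 comparisons, and Benjamini-Hochberg adjustment over 14458 genes, with a threshold of 0.05. The fits were tested on simulated data. Log2 CPM of single mice used a prior count of 2. Exon lengths were the union of all exons of a gene in GENCODE M21, which may differ from the annotation of the counts. Between 11 and 31982 counts stood behind each member's value in a library, the lowest for Plin5.

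The genes and gene lists were chosen with earlier results of these data known. Named were all members, 11 regulators and droplet genes where counted (Hcar1 is not analysed here), the 3 largest falls or rises per list in obese mice, 1 defining gene per main marker list and the nearest gene to each member. Other named genes are marked as such.

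Both pads of a mouse pair the libraries. Their deviations from the group means correlated at 0.112 to 0.626 in lean mice and at -0.0719 to 0.64 in obese mice.

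Alternatives were DESeq2 1.42.0, upper-quartile and median-ratio normalization, no filter, at least 10 counts in every library, only the groups compared, the mouse as a replicate block, each library left out in turn, a prior count of 0.5, a shorter adipocyte list and centring within groups. Leaving out obese tumor-associated mice 0 and 4 together was added after seeing the data. A planned comparison of protein sequences was not run.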

Additional observations from a re-analysis of the deposited data

Results flagged for a closer look

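Within groups, single libraries far from the others were sought for each gene and group, 40 combinations in all, with Dixon's 95% critical value. Chance flags about 1 in 20, or 2 of 40, and 3 were found. Pnpla3 was 281 CPM in the obese control library of mouse 4, while the other 5 obese control libraries lay between 101 and 168 CPM. Mgll was 589 CPM in the lean tumor-associated library of mouse 9, against 447 to 472 CPM in the other 4. Cidec was 971 CPM in the same library of mouse 9, against 404 to 564 CPM in the other 4. The adipocyte markers of mouse 9 also had the smallest change among lean mice, -0.20 on the log2 scale. The cause was not tested.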

How the results depend on the processing

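The falls of Pnpla3, Lipe, Mgll, Plin1, Plin4 and Cidec in obese tumor-associated IWAT were called in all 30 alternatives, that of Pnpla2 in 29, Abhd5 in 28 and Plin5 in 26, and the rise of Plin2 in 29. The number of genes called lower in lean mice was 0 (0.913% of all genes). It was 1 with DESeq2 (1.92%), 6 with the groups compared alone (4.3%) and 4 without obese tumor-associated mice 0 and 4 (3.02%). With each library left out it was 0 to 1. The 1 came without obese tumor-associated mouse 4, where 272 of 14394 genes were called lower. The number called higher with each library left out was 0 to 1 in obese tumor-associated IWAT and 1 to 2 between control pads. The 0 came without obese tumor-associated mouse 8 (3962 of 14413 genes called higher) and the 2 without mouse 4 (1903 of 14394). Between control pads the number was 3 with the groups compared alone (13.1% of all genes) and 3 without mice 0 and 4 (14.0%). Between tumor-associated pads, 1 gene was lower with the groups compared alone (18.1% of all genes) and 1 to 5 with each library left out. The 5 came without obese tumor-associated mouse 1, where 3603 of 14423 genes were called lower. For the obese minus lean difference, 1 gene (Plin2) was called higher with DESeq2 (8.53% of all genes) and with median-ratio factors (2.86%). It was also called with at least 10 counts in every library (3.84%) and with the mouse as a replicate block (2.17%). With each library left out, 0 to 1 of the 10 genes was called higher. Where 1 was, 346 to 1903 genes were called higher over all genes. The replicate block changed no other call of a member.

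Signs that changed were of small values. Between control pads, Plin2 was -0.00335 with DESeq2, -0.057 with upper-quartile and -0.00291 with median-ratio normalization, -0.016 with at least 10 counts in every library and -0.10 to 0.28 with each library left out. Lipe ranged from -0.00283 to 0.14 and Plin5 from -0.074 to 0.29 with each library left out. Without mice 0 and 4, Mgll (0.094) and Plin4 (0.20) between tumor-associated pads and Pnpla2 (0.095) for the difference changed sign. The causes were not tested.

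Upper-quartile normalization moved the split of all called genes from 473 higher and 132 lower to 382 and 199 in lean mice, from 1380 and 1088 to 1068 and 1446 between control pads, and from 3569 and 3233 to 2923 and 3943 between tumor-associated pads. Counts of called genes moved by over 1.5 times with DESeq2 (1263 higher and 1105 lower against 373 and 338 for the difference, and 284 against 132 lower in lean mice), without a filter (10 and 8 for the difference), and without mice 0 and 4 (46 and 153 for the difference, 737 and 438 in lean mice). With the groups compared alone, 846 were higher and 591 lower in lean mice. With each library left out, genes called for the difference numbered 0 higher and 1 lower (without lean tumor-associated mouse 0) to 1903 and 1665 (without obese tumor-associated mouse 1). In lean mice they numbered 169 and 14 (without lean tumor-associated mouse 2) to 680 and 272 (without obese tumor-associated mouse 4), and between control pads 902 and 704 (without lean control mouse 6) to 1903 and 1525 (without obese tumor-associated mouse 4). A prior count of 0.5 left Plin2 at 2.41 above the adipocyte markers in obese mice. The precision is limited by 5 to 6 mice per group and, for Plin5, also by few counts (11 to 118 in a library). Nothing tells whether adipocyte number, RNA per adipocyte or only the share of RNA from other cells changed.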
